A study of Mus musculus with 18 samples.

Results

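The vacuolar H+-ATPase (V-ATPase), the cathepsins and the lysosome-associated membrane proteins were examined in mouse cerebellum by RNA sequencing and ribosome profiling. Members were the genes with at least 1 protein_coding transcript and a symbol that begins with Atp6v, that reads Atp6ap1 or Atp6ap2, that joins Cts and a single letter, or that reads Lamp1, Lamp2 or Lamp3. This rule gave 46 of the 21904 genes with a protein_coding transcript. By role they comprised 13 subunits of the V1 sector, 9 subunits of the V0 sector, 2 accessory subunits, 18 cathepsins, 3 LAMP proteins and *Atp6v1fnb*, a gene next to *Atp6v1f* that shares its name without being a known subunit. The 18 cathepsins comprised 10 cysteine proteases, 4 cysteine proteases of the placenta (*Ctsj*, *Ctsm*, *Ctsq* and *Ctsr*), 2 aspartic proteases (*Ctsd* and *Ctse*) and 2 serine proteases (*Ctsa* and *Ctsg*).

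The V-ATPase is a rotary proton pump. Its cytosolic V1 sector hydrolyses ATP, its membrane-embedded V0 sector carries protons into the lumen, and the low pH so produced lets cathepsins, which are made as inactive precursors, mature and degrade protein. In neurons the same pump also acidifies synaptic vesicles, which drives the uptake of neurotransmitters, whereas cathepsins such as *Ctss* are abundant in microglia, the macrophages of the brain. LAMP proteins line the lysosomal membrane.

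The study asked how the loss of GTPBP1 or GTPBP2, related GTPases linked to the rescue of stalled ribosomes, acts in the mouse brain. Cerebella of 3-week-old mice (P21) of 3 genotypes were taken, and 3 libraries were made per genotype in each assay, so 9 of RNA and 9 of footprints. B6J mice were C57BL/6J controls, and this strain carries a hypomorphic mutation of the tRNA gene *n-Tr20*, which decodes AGA codons, so that all 3 genotypes shared it. In B6J.*Gtpbp1*-/- mice a PGK-Neo cassette had taken the place of exon 4 of *Gtpbp1* and of part of exon 3, and the allele was backcrossed to C57BL/6J. In B6J-*Gtpbp2*-/- mice the gene carried the chemically induced point mutation nmf205. Neither mutation was confined to a cell type, and 1 cerebellum was used for each footprint library. The study used mice of both sexes in its experiments, but the labels give no sex per library. RNA libraries were labelled as one batch and footprint libraries as another, so assay and batch cannot be told apart in a comparison of the assays.

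Footprints are the pieces of mRNA left inside ribosomes once nuclease has removed the rest. The RNA libraries of B6J mice held 49090286, 50301156 and 52114145 estimated counts, those of B6J.*Gtpbp1*-/- mice 44242824, 49293902 and 37794333, and those of B6J-*Gtpbp2*-/- mice 46026737, 50878561 and 51979454. Footprint libraries were shallower, with 4428395, 4489970 and 6523974 counts on coding sequence in B6J, 7054063, 8612441 and 5944024 in B6J.*Gtpbp1*-/- and 6281637, 3630823 and 10442573 in B6J-*Gtpbp2*-/- mice. Per-library values below are in the order of replicates 1, 2 and 3 and in CPM, the count scaled to a common library size, unless TPM, which is also normalized to transcript length, is named. Fold changes are on the log2 scale with their standard error (SE), and a gene was called when its Benjamini-Hochberg adjusted p over all genes tested was at most 0.05 in the quasi-likelihood test of edgeR.

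The mutated genes were read first. *Gtpbp1* RNA was at 71, 77.8 and 66.7 CPM in B6J, 44, 41.7 and 43.9 in B6J.*Gtpbp1*-/- and 58.6, 72.1 and 65.7 in B6J-*Gtpbp2*-/- mice. Its 3 libraries from B6J.*Gtpbp1*-/- mice lay below the other 6 in CPM, whereas in TPM, at 34.5, 35.1 and 41.1 against 43.5, 38.4 and 40.4 in B6J, the groups overlapped. *Gtpbp1* RNA fell by 0.73 in B6J.*Gtpbp1*-/- mice (SE 0.082, adjusted p = 5.94e-05), but an offset for effective transcript length ended this call (adjusted p = 0.0819, the highest of 16 alternatives). In B6J libraries *Gtpbp1* footprints stood at 73.6, 117 and 84.8 CPM, against 32, 25.5 and 35.6 in B6J.*Gtpbp1*-/- and 79.3, 66.8 and 62.1 in B6J-*Gtpbp2*-/- libraries. Footprints of *Gtpbp1* likewise separated the 3 B6J.*Gtpbp1*-/- libraries of that assay from the other 6 and fell by 1.57 (SE 0.23, adjusted p = 0.00676). For *Gtpbp2* the RNA libraries gave 85.9, 74 and 88.1 CPM in B6J, 109, 100 and 104 in B6J.*Gtpbp1*-/- and 65.5, 75.4 and 72.7 in B6J-*Gtpbp2*-/- mice. The B6J-*Gtpbp2*-/- libraries overlapped the B6J libraries, and the B6J.*Gtpbp1*-/- libraries were the highest. In TPM *Gtpbp2* was at 114, 91.7 and 99 in B6J, 139, 160 and 162 in B6J.*Gtpbp1*-/- and 127, 145 and 151 in B6J-*Gtpbp2*-/- mice, so both mutants lay above B6J and overlapped each other, and the direction in B6J-*Gtpbp2*-/- mice followed the unit. *Gtpbp2* RNA did not pass the test in B6J-*Gtpbp2*-/- mice (−0.22, SE 0.093, adjusted p = 0.19), and rose in B6J.*Gtpbp1*-/- mice by 0.34 (SE 0.083, adjusted p = 0.0154), a call that ended without B6J replicate 2 (adjusted p = 0.066) or B6J.*Gtpbp1*-/- replicate 1 (adjusted p = 0.0647). *Gtpbp2* footprints were at 44.7, 36.1 and 38.4 CPM in B6J, 36.2, 43.3 and 58.3 in B6J.*Gtpbp1*-/- and 28.9, 26.4 and 7.54 in B6J-*Gtpbp2*-/- mice. All 3 footprint libraries of B6J-*Gtpbp2*-/- mice lay below the others, yet the fold change did not pass the test (−0.97, SE 0.44, adjusted p = 0.321). Counts were summed over whole genes, so they include exons outside the replaced part of *Gtpbp1*, and a point mutation need not lower a transcript.

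Levels of the members ranged from 751 TPM to none. Compared per length in TPM, *Atp6v0c*, the proteolipid that forms most of the proton-carrying ring, stood highest by the mean over the 9 RNA libraries, followed by *Lamp1* at 475 TPM, *Atp6v1b2*, the brain form of the B subunit, at 374 TPM and *Atp6v1e1*, the E subunit, at 354 TPM. *Atp6v0c* was at 805, 816 and 793 TPM in B6J, 766, 710 and 638 in B6J.*Gtpbp1*-/- and 793, 703 and 739 in B6J-*Gtpbp2*-/- mice. *Lamp1* was at 422, 442 and 449 TPM in B6J, 518, 484 and 491 in B6J.*Gtpbp1*-/- and 489, 483 and 497 in B6J-*Gtpbp2*-/- mice. *Atp6v1b2* was at 345, 355 and 358 TPM in B6J, 399, 382 and 378 in B6J.*Gtpbp1*-/- and 397, 369 and 378 in B6J-*Gtpbp2*-/- mice. *Atp6v1e1* was at 378, 386 and 408 TPM in B6J, 363, 317 and 302 in B6J.*Gtpbp1*-/- and 357, 334 and 339 in B6J-*Gtpbp2*-/- mice. *Atp6v0c* was above *Lamp1*, and *Lamp1* above the other pair, in every library, but *Atp6v1e1* was above *Atp6v1b2* in each B6J library and below it in each mutant library. The next places in B6J were taken by *Atp6v0b* (mean 328 TPM), *Atp6v1g2* (327), *Atp6ap1* (300) and *Ctsb* (293), while *Ctsd* averaged 236 TPM in B6J and took the fourth place in both mutants (368 and 350). By the mean over 9 libraries *Ctsd* (318 TPM) led the aspartic cathepsins, *Ctsb* (304) the cysteine cathepsins and *Ctsa*, at 82.3 TPM, the serine cathepsins.

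At the other end, *Ctsj*, *Ctsm* and *Ctsr* had no count in any of the 18 libraries, *Ctsq* had 7 RNA counts over 9 libraries, *Atp6v1fnb* had 5, *Ctsg*, a granule protease of neutrophils, had 6, and *Lamp3* had 1. These 7 members did not reach the count minimum and entered none of the main RNA tests. Subunit forms known from kidney, inner ear, testis or osteoclasts were close to the floor, with *Atp6v1b1* at 1.04 TPM, *Atp6v0a4* at 0.763, *Atp6v1c2* at 0.466, *Atp6v0d2* at 0.266 (the lowest V0 subunit), *Atp6v1g3* at 0.158 and *Atp6v1e2* at 0.156 (the lowest V1 subunit). *Ctse* was at 0.259 TPM and *Ctsw*, a protease of cytotoxic lymphocytes and the lowest cysteine cathepsin apart from those of the placenta, at 1.45. Footprint CPM per kb of coding sequence gave another order at the top of B6J libraries, with *Ctsb* at 1386, *Atp6v0c* at 954, *Lamp1* at 913, *Atp6v1g2* at 857 and *Atp6v1e1* at 825, and *Ctsb* was highest in both mutants too. Several members took a large part of their TPM from transcripts not annotated as protein_coding, since protein_coding transcripts held 43.6% of the TPM of *Atp6v1d*, 55.5% of *Ctsh* and 58.5% of *Ctsb*.

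Summed over all 46 members, RNA stood at 6073, 6031 and 6018 TPM in B6J, 6568, 6109 and 6042 in B6J.*Gtpbp1*-/- and 6240, 6117 and 6290 in B6J-*Gtpbp2*-/- mice, so the total overlapped between B6J and B6J.*Gtpbp1*-/- mice and lay just above B6J in B6J-*Gtpbp2*-/- mice. The 22 V1 and V0 subunits summed to 4020, 3969 and 4025 TPM in B6J, to 3966, 3742 and 3615 in B6J.*Gtpbp1*-/- and to 3885, 3715 and 3846 in B6J-*Gtpbp2*-/- mice, with each mutant library below all B6J libraries. The 18 cathepsins summed to 983, 970 and 902 TPM in B6J, to 1311, 1137 and 1166 in B6J.*Gtpbp1*-/- and to 1136, 1165 and 1199 in B6J-*Gtpbp2*-/- mice, with each mutant library above all B6J libraries. These sums were not tested, and TPM is not rescaled between libraries in the way CPM is.

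The tissue label was compared with marker genes. Granule neuron markers, the most numerous neurons of the cerebellum, were led by *Cbln3* at 1642, 1740 and 1443 CPM in B6J, and Purkinje cell markers by *Itpr1* at 3942, 4760 and 2840 CPM. No gene of the granule neuron, Purkinje cell, astrocyte, oligodendrocyte, microglia or endothelial lists was at 0 in any genotype. In bulk tissue, fewer cells of a type and less RNA per cell cannot be told apart, which holds for every result below.

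In the RNA of B6J.*Gtpbp1*-/- mice against B6J, 39 members were tested and 15 were called, 6 higher and 9 lower, where 13.8% of the 24577 genes tested were called (5.9% higher and 7.93% lower), and 19 members had an unadjusted p under 0.05, as had 26.3% of genes. The median fold change was −0.03 over the members and 0.03 over all genes. Against B6J, B6J-*Gtpbp2*-/- mice had 9 of 38 members called, 4 higher and 5 lower, where 8.63% of 24859 genes were called (3.61% higher and 5.02% lower), and 18 members had an unadjusted p under 0.05, as had 22.5% of genes. The median was −0.05 over the members and 0.03 over all genes. The comparisons share the 3 B6J libraries. Separation from B6J without overlap in CPM was common over all genes. In B6J.*Gtpbp1*-/- mice 10 members lay wholly above B6J and 13 wholly below, as did 3932 and 3911 of the 24577 genes. In B6J-*Gtpbp2*-/- mice 6 and 12 members did, as did 3606 and 3516 of the 24859 genes. All genes split into 1449 higher and 1949 lower in B6J.*Gtpbp1*-/- and 898 higher and 1248 lower in B6J-*Gtpbp2*-/- mice, but with upper quartile normalization into 1837 and 1512, and 1074 and 941. That scaling gave 8 members higher and 7 lower in B6J.*Gtpbp1*-/- and 4 higher and 3 lower in B6J-*Gtpbp2*-/- mice, and moved the members' median in B6J.*Gtpbp1*-/- mice to 0.02.

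Single libraries and settings moved these counts. Without B6J.*Gtpbp1*-/- replicate 2, 9 members were called in that comparison, with 726 genes higher and 1164 lower. The count of 9 in B6J-*Gtpbp2*-/- mice fell to 3 without B6J replicate 1 (410 genes higher and 543 lower) or replicate 2 (487 and 582), to 6 without B6J replicate 3, to 2 without B6J-*Gtpbp2*-/- replicate 2 (587 and 771) or replicate 3 (380 and 599), to 2 with a covariate for libraries with counts of the Y-linked gene *Ddx3y*, and to 5 with the effective length offset. DESeq2 called 15 members there and 16 in B6J.*Gtpbp1*-/- mice. *Ddx3y* reached 10 CPM in the RNA of B6J replicate 2 and B6J.*Gtpbp1*-/- replicates 1 and 2, in the footprints of B6J replicates 1 and 2 and B6J.*Gtpbp1*-/- replicate 1, and in no B6J-*Gtpbp2*-/- library. As far as *Ddx3y* marks it, sex was thus partly confounded with genotype in comparisons with B6J-*Gtpbp2*-/- mice. In comparisons of B6J-*Gtpbp2*-/- with B6J mice the covariate therefore takes B6J replicate 2 in RNA, and B6J replicates 1 and 2 in footprints, out of the genotype difference. RNA calls that it ended there had similar fold changes, at −0.30 (*Atp6v0d1*), −0.38 (*Atp6v0e2*), −0.37 (*Atp6v1d*) and −0.36 (*Atp6v1e1*). Those of the higher members were 0.42 (*Ctsd*), 0.70 (*Ctsh*) and 0.43 (*Ctsz*). Calls ended by the offset stood at 0.50 (*Ctsh*), 0.46 (*Ctsz*), −0.30 (*Atp6v0d1*) and −0.31 (*Atp6v1d*). Directions of the 24 calls were the same under all 16 alternatives tried for each.

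**Figure D1:**
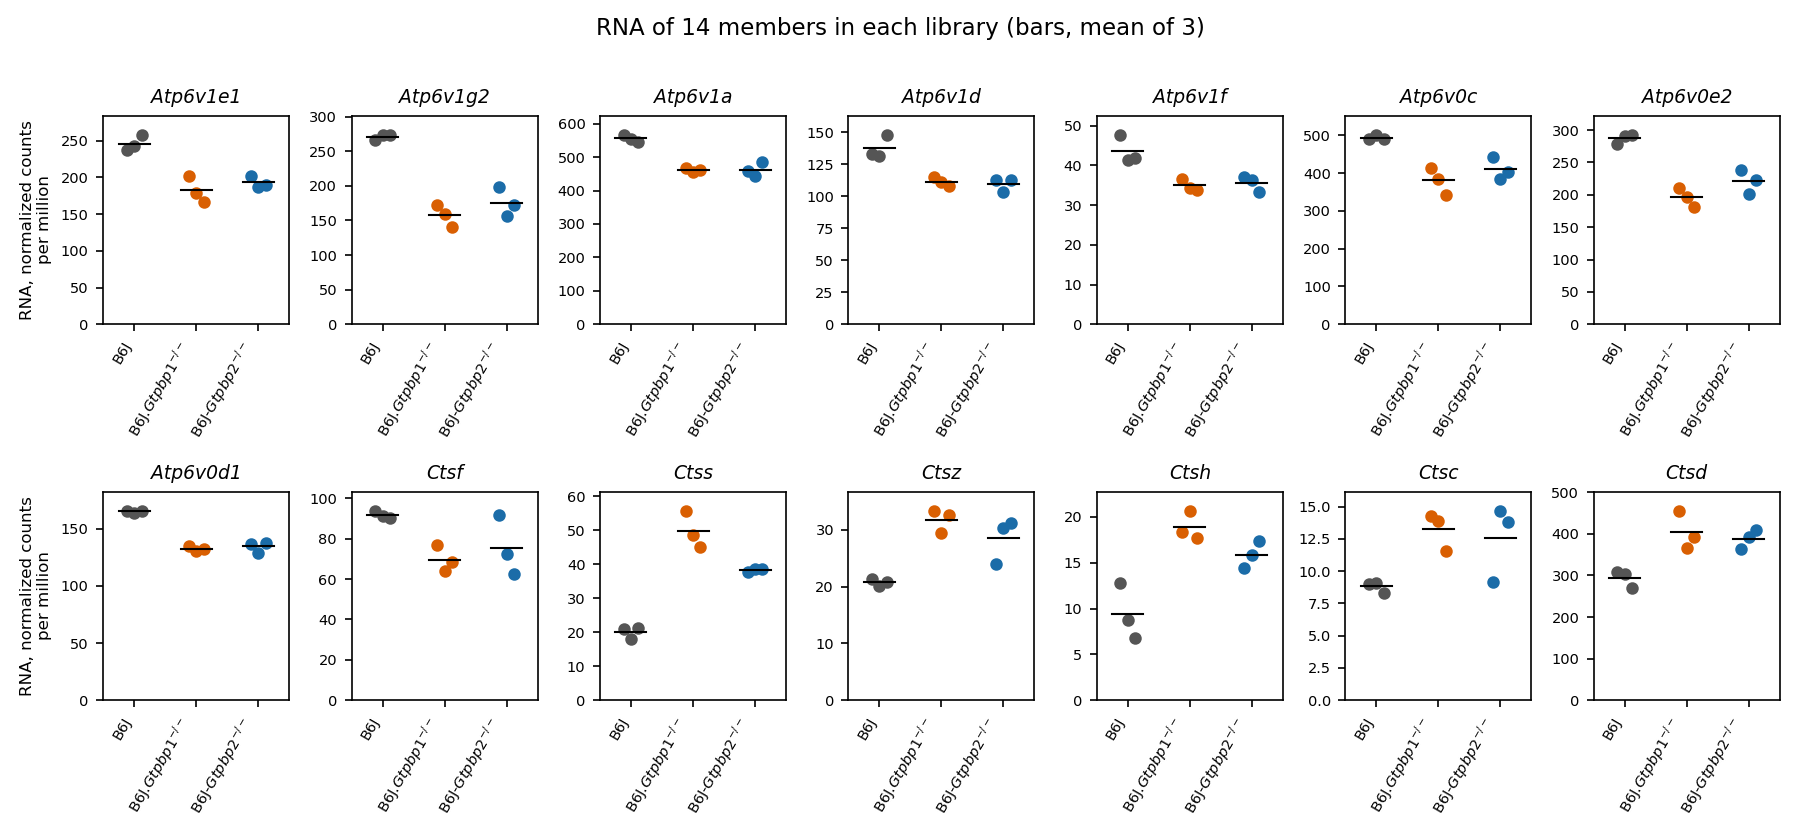
RNA level in CPM of each library for 14 of the 15 members called in B6J.*Gtpbp1*-/- mice (*Atp6v0a4*, near the floor, is left out), with points for libraries and bars for the mean of 3. *Ctss* separated all 3 genotypes, whereas *Atp6v1g2* and *Atp6v0e2* were lower in all 6 mutant libraries than in B6J.

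Of the 13 V1 subunits, 5 fell and none rose in B6J.*Gtpbp1*-/- mice, with a median fold change of −0.08. In B6J-*Gtpbp2*-/- mice 3 of the 12 tested fell and none rose (median −0.17). *Atp6v1g2* encodes the neuronal form of the G subunit, part of the peripheral stalk that holds the catalytic head in place. In B6J libraries *Atp6v1g2* RNA stood at 266, 274 and 273 CPM, against 172, 160 and 141 in B6J.*Gtpbp1*-/- and 198, 156 and 173 in B6J-*Gtpbp2*-/- libraries. All 6 mutant libraries lay below the 3 B6J libraries, with the lowest in B6J.*Gtpbp1*-/- mice. *Atp6v1g2* fell by 0.78 in B6J.*Gtpbp1*-/- mice (SE 0.084, adjusted p = 4.26e-05) and by 0.62 in B6J-*Gtpbp2*-/- mice (SE 0.093, adjusted p = 0.00198). Both calls held under all 16 alternatives. *Atp6v1g1*, the widely expressed form of the same subunit, stayed within 70.3 to 85.7 CPM across the 9 libraries, without a call (0.06 in B6J.*Gtpbp1*-/- mice, adjusted p = 0.724).

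The other stalk subunit, E, is encoded by *Atp6v1e1*. For *Atp6v1e1* the RNA libraries gave 237, 242 and 258 CPM in B6J, 202, 178 and 167 in B6J.*Gtpbp1*-/- and 202, 187 and 190 in B6J-*Gtpbp2*-/- mice. The mutant libraries again lay below all B6J libraries. *Atp6v1e1* fell by 0.43 in B6J.*Gtpbp1*-/- mice (SE 0.085, adjusted p = 0.00439) and by 0.35 in B6J-*Gtpbp2*-/- mice (SE 0.076, adjusted p = 0.0172). This call held in B6J.*Gtpbp1*-/- mice under all 16 alternatives, whereas in B6J-*Gtpbp2*-/- mice it ended with the *Ddx3y* covariate (adjusted p = 0.0525) and without B6J replicate 1 (0.0595), B6J replicate 2 (0.0546), B6J-*Gtpbp2*-/- replicate 2 (0.0676) or replicate 3 (0.0694), over a range of 0.000435 to 0.0694.

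*Atp6v1d* encodes a subunit of the central rotor. *Atp6v1d* RNA was at 133, 131 and 148 CPM in B6J, 115, 111 and 108 in B6J.*Gtpbp1*-/- and 113, 103 and 113 in B6J-*Gtpbp2*-/- mice. Each mutant library was below each B6J library in CPM, but the groups overlapped in TPM. There *Atp6v1d* was at 148, 133 and 164 in B6J, 153, 145 and 139 in B6J.*Gtpbp1*-/- and 136, 134 and 130 in B6J-*Gtpbp2*-/- mice. *Atp6v1d* fell by 0.31 in B6J.*Gtpbp1*-/- mice (SE 0.076, adjusted p = 0.0166) and by 0.33 in B6J-*Gtpbp2*-/- mice (SE 0.081, adjusted p = 0.0287). The call in B6J.*Gtpbp1*-/- mice ended with the *Ddx3y* covariate (adjusted p = 0.0668), with the effective length offset (0.267) and without B6J.*Gtpbp1*-/- replicate 2 (0.0739) or replicate 3 (0.0531), with 0.00263 as the smallest value over 16 alternatives. The other call, in B6J-*Gtpbp2*-/- mice, ended with the covariate (0.0554), the offset (0.0905), protein_coding transcripts alone (0.0531), upper quartile normalization (0.0551), and without any one of B6J replicates 1 (0.0874), 2 (0.0616) and 3 (0.068) or B6J-*Gtpbp2*-/- replicates 2 (0.113) and 3 (0.0724), with 0.00429 as the smallest.

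*Atp6v1a*, the catalytic A subunit, and *Atp6v1f*, a small rotor subunit, were called in B6J.*Gtpbp1*-/- mice alone. In B6J libraries *Atp6v1a* RNA stood at 567, 555 and 546 CPM, against 467, 455 and 460 in B6J.*Gtpbp1*-/- and 459, 442 and 486 in B6J-*Gtpbp2*-/- libraries. For *Atp6v1f* the RNA libraries gave 47.7, 41.2 and 41.8 CPM in B6J, 36.5, 34.4 and 33.9 in B6J.*Gtpbp1*-/- and 37, 36.4 and 33.2 in B6J-*Gtpbp2*-/- mice. For both genes the 6 mutant libraries lay below the 3 of B6J in CPM. In TPM this held for *Atp6v1a*, whereas the groups overlapped for *Atp6v1f*. Its TPM was 150, 130 and 125 in B6J, 134, 124 and 126 in B6J.*Gtpbp1*-/- and 127, 128 and 119 in B6J-*Gtpbp2*-/- mice. *Atp6v1a* fell by 0.27 in B6J.*Gtpbp1*-/- mice (SE 0.077, adjusted p = 0.032), and did not pass the test in B6J-*Gtpbp2*-/- mice (−0.27, SE 0.079, adjusted p = 0.0613). *Atp6v1f* fell by 0.32 in B6J.*Gtpbp1*-/- mice (SE 0.091, adjusted p = 0.0331), and did not pass the test in B6J-*Gtpbp2*-/- mice (−0.29, SE 0.094, adjusted p = 0.0804). The call of *Atp6v1a* ended with the *Ddx3y* covariate (adjusted p = 0.0849), upper quartile normalization (0.0702), and without B6J replicates 1 (0.124) or 2 (0.0726) or B6J.*Gtpbp1*-/- replicates 1 (0.0584), 2 (0.136) or 3 (0.0577), over a range of 0.000411 to 0.136. That of *Atp6v1f* ended with the covariate (0.0943), the offset (0.198), upper quartile normalization (0.0729), and without B6J replicate 1 (0.136) or B6J.*Gtpbp1*-/- replicates 1 (0.0507), 2 (0.133) or 3 (0.0967), over a range of 0.0122 to 0.198. Both were called in B6J-*Gtpbp2*-/- mice by DESeq2 (0.00415 and 0.043) and with all 9 libraries in a single model (0.036 and 0.0437). No test here showed that these genes differ between the mutants, since the direct comparison of the mutants gave −0.01 for *Atp6v1a* and −0.03 for *Atp6v1f* (adjusted p = 1 for each).

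The remaining abundant V1 subunits were not called in either mutant. The nucleotide-binding B subunit *Atp6v1b2* was at 524, 546 and 556 CPM in B6J and between 503 and 550 in the 6 mutant libraries, so the groups overlapped. Fold changes in B6J.*Gtpbp1*-/- mice were −0.03 for *Atp6v1b2* (adjusted p = 0.85), −0.08 for *Atp6v1c1*, the C subunit that joins the stalks to V0 (0.602), and 0.00 for *Atp6v1h*, the H subunit that brakes the free V1 sector (0.987). The scarce forms *Atp6v1b1* (16 to 55 counts in a library), *Atp6v1c2* (0 to 22), *Atp6v1e2* (0 to 9) and *Atp6v1g3* (0 to 9) were not called either, with *Atp6v1e2* below the count minimum in B6J-*Gtpbp2*-/- mice.

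Among the 9 V0 subunits, 3 fell and 1 rose in B6J.*Gtpbp1*-/- mice, with a median of −0.21, and 2 fell and none rose in B6J-*Gtpbp2*-/- mice (median −0.08). *Atp6v0e2* is the form of the small e subunit that is enriched in brain. *Atp6v0e2* RNA was at 279, 291 and 293 CPM in B6J, 211, 196 and 181 in B6J.*Gtpbp1*-/- and 238, 201 and 223 in B6J-*Gtpbp2*-/- mice. It was lower in each mutant library than in any B6J library. *Atp6v0e2* fell by 0.56 in B6J.*Gtpbp1*-/- mice (SE 0.08, adjusted p = 0.000477) and by 0.38 in B6J-*Gtpbp2*-/- mice (SE 0.083, adjusted p = 0.016). The call in B6J.*Gtpbp1*-/- mice held under all 16 alternatives. That in B6J-*Gtpbp2*-/- mice ended with the *Ddx3y* covariate (adjusted p = 0.0616) and without B6J replicates 1 (0.0629) or 2 (0.0666) or B6J-*Gtpbp2*-/- replicates 2 (0.0706) or 3 (0.052), over a range of 0.000353 to 0.0706. *Atp6v0e*, the widely expressed paralog, was at 29.2, 26.7 and 22.8 CPM in B6J and between 21.3 and 26.8 in the mutants, without a call (−0.17 in B6J.*Gtpbp1*-/- mice, adjusted p = 0.426).

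*Atp6v0d1* encodes the d subunit, the socket that couples the rotor of V1 to the ring. In B6J libraries *Atp6v0d1* RNA stood at 166, 164 and 166 CPM, against 135, 131 and 132 in B6J.*Gtpbp1*-/- and 137, 129 and 138 in B6J-*Gtpbp2*-/- libraries. The B6J libraries were close to each other and lay above all 6 mutant libraries. *Atp6v0d1* fell by 0.31 in B6J.*Gtpbp1*-/- mice (SE 0.068, adjusted p = 0.00724) and by 0.29 in B6J-*Gtpbp2*-/- mice (SE 0.07, adjusted p = 0.0247). The call in B6J.*Gtpbp1*-/- mice held under all 16 alternatives, whereas in B6J-*Gtpbp2*-/- mice it ended with the covariate (adjusted p = 0.0686), the offset (0.0505), upper quartile normalization (0.051), and without B6J replicates 1 (0.101) or 2 (0.072) or B6J-*Gtpbp2*-/- replicates 2 (0.103) or 3 (0.0747), over a range of 0.00184 to 0.103.

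The proteolipid *Atp6v0c* was called in B6J.*Gtpbp1*-/- mice. For *Atp6v0c* the RNA libraries gave 491, 502 and 490 CPM in B6J, 415, 384 and 343 in B6J.*Gtpbp1*-/- and 442, 385 and 403 in B6J-*Gtpbp2*-/- mice. B6J libraries lay close together and above all mutant libraries. *Atp6v0c* fell by 0.38 in B6J.*Gtpbp1*-/- mice (SE 0.087, adjusted p = 0.0113), and did not pass the test in B6J-*Gtpbp2*-/- mice (−0.27, SE 0.083, adjusted p = 0.0697). The call ended without B6J.*Gtpbp1*-/- replicate 2 (adjusted p = 0.0529, from a range of 9.39e-05 to 0.0529). DESeq2 called it in B6J-*Gtpbp2*-/- mice (0.0102), as did the fit without B6J-*Gtpbp2*-/- replicate 1 (0.0302). The second proteolipid, *Atp6v0b*, was not called (−0.21 and −0.24, adjusted p = 0.0944 and 0.0827), except by DESeq2 in B6J-*Gtpbp2*-/- mice (0.0386).

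*Atp6v0a4*, a form of the a subunit known from kidney and inner ear, was the only V-ATPase subunit called higher. It had 19, 10 and 3 counts in B6J, 32, 71 and 48 in B6J.*Gtpbp1*-/- and 15, 47 and 88 in B6J-*Gtpbp2*-/- mice. Counts were few, the libraries of B6J and B6J-*Gtpbp2*-/- mice overlapped, and TPM overlapped in all groups, at 1.04, 0.775 and 0.0339 in B6J and 0.421, 1.2 and 0.772 in B6J.*Gtpbp1*-/- mice. *Atp6v0a4* rose by 2.28 in B6J.*Gtpbp1*-/- mice (SE 0.60, adjusted p = 0.0234), and did not pass the test in B6J-*Gtpbp2*-/- mice (2.07, SE 0.72, adjusted p = 0.108). The call ended with the effective length offset (0.38, adjusted p = 0.868) and without B6J replicate 2 (0.0783) or B6J.*Gtpbp1*-/- replicates 2 (0.127) or 3 (0.0865), over a range of 0.000965 to 0.868, and the effective length of the gene was 1.97 times that of B6J in B6J.*Gtpbp1*-/- libraries. DESeq2 (0.0441) and the fit with no filter on low counts (0.0208) called it in B6J-*Gtpbp2*-/- mice. *Atp6v0a1*, the main neuronal a subunit, was at 370, 405 and 346 CPM in B6J and between 402 and 457 in the mutants (0.18 in B6J.*Gtpbp1*-/- mice, adjusted p = 0.207), *Atp6v0a2* gave −0.05 (0.764), and *Atp6v0d2*, the d subunit of osteoclasts, had at most 36 counts in a library and no call against B6J.

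Granule neuron markers were lower in the same libraries. In B6J.*Gtpbp1*-/- mice 8 of the 11 markers fell, with a median of −0.42, and in B6J-*Gtpbp2*-/- mice 7 of 11 fell (median −0.51). Their summed RNA level was 7544, 7960 and 7501 CPM in B6J, 5154, 5031 and 5864 in B6J.*Gtpbp1*-/- and 5353, 5703 and 4916 in B6J-*Gtpbp2*-/- mice. Of these, *Cbln3* was the most abundant in each library group, at 1067, 965 and 1180 CPM in B6J.*Gtpbp1*-/- and 1076, 1214 and 1031 in B6J-*Gtpbp2*-/- mice, and no marker was at 0. Purkinje cell markers also gave 2 lower of 9 in B6J.*Gtpbp1*-/- (median −0.21) and 5 of 9 in B6J-*Gtpbp2*-/- mice (median −0.37), with sums of 9876, 11034 and 8322 CPM in B6J, 8260, 7272 and 9206 in B6J.*Gtpbp1*-/- and 7404, 8233 and 6816 in B6J-*Gtpbp2*-/- mice. The part of these cells in the lower V-ATPase subunits was not tested.

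The accessory subunits help to assemble V0. *Atp6ap1* was at 341, 344 and 342 CPM in B6J, 327, 308 and 311 in B6J.*Gtpbp1*-/- and 305, 305 and 312 in B6J-*Gtpbp2*-/- mice, and *Atp6ap2*, also known as the prorenin receptor, was at 228, 238 and 251, at 269, 261 and 264, and at 230, 255 and 263. *Atp6ap1* libraries of the mutants lay below B6J in CPM and above B6J in TPM (309, 303 and 286 in B6J against 327, 323 and 329, and 351, 331 and 319), so the direction followed the unit. Neither gene was called by edgeR or DESeq2 in either mutant, and neither reached an unadjusted p of 0.05 against B6J (−0.12 and 0.15 in B6J.*Gtpbp1*-/- mice, adjusted p = 0.367 and 0.243).

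Of the 10 cysteine cathepsins, 4 rose and 1 fell in B6J.*Gtpbp1*-/- mice, with a median of 0.19, and 3 rose and none fell in B6J-*Gtpbp2*-/- mice (median 0.12). *Ctss*, which trims the invariant chain during antigen presentation, gave the smallest adjusted p of any member. *Ctss* RNA was at 20.9, 18.1 and 21.2 CPM in B6J, 55.8, 48.5 and 45.2 in B6J.*Gtpbp1*-/- and 37.6, 38.5 and 38.7 in B6J-*Gtpbp2*-/- mice. The 3 genotypes did not overlap, with B6J lowest and B6J.*Gtpbp1*-/- highest. *Ctss* rose by 1.31 in B6J.*Gtpbp1*-/- mice (SE 0.11, adjusted p = 4.67e-06) and by 0.93 in B6J-*Gtpbp2*-/- mice (SE 0.10, adjusted p = 0.000304). Both calls held under all 16 alternatives.

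*Ctsz*, a carboxypeptidase, and *Ctsh*, an aminopeptidase, rose in both mutants. In B6J libraries *Ctsz* RNA stood at 21.3, 20.1 and 20.9 CPM, against 33.4, 29.4 and 32.6 in B6J.*Gtpbp1*-/- and 23.9, 30.4 and 31.2 in B6J-*Gtpbp2*-/- libraries. For *Ctsh* the RNA libraries gave 12.8, 8.77 and 6.79 CPM in B6J, 18.4, 20.7 and 17.7 in B6J.*Gtpbp1*-/- and 14.4, 15.9 and 17.4 in B6J-*Gtpbp2*-/- mice. All mutant libraries of both genes lay above all B6J libraries in CPM. In TPM this held for *Ctsz*, whereas *Ctsh* overlapped between B6J-*Gtpbp2*-/- mice (24, 29.3 and 32.1) and B6J (26.8, 13.3 and 14.2). *Ctsz* rose by 0.61 in B6J.*Gtpbp1*-/- mice (SE 0.097, adjusted p = 0.000972) and by 0.45 in B6J-*Gtpbp2*-/- mice (SE 0.12, adjusted p = 0.0388). *Ctsh* rose by 1.00 in B6J.*Gtpbp1*-/- mice (SE 0.20, adjusted p = 0.00559) and by 0.75 in B6J-*Gtpbp2*-/- mice (SE 0.21, adjusted p = 0.0457). *Ctsz* was called in B6J.*Gtpbp1*-/- mice under all 16 alternatives, and *Ctsh* under 15, with the effective length offset as the exception (adjusted p = 0.185, the smallest value being 9.76e-11). *Ctsz* was lost in B6J-*Gtpbp2*-/- mice with the *Ddx3y* covariate (0.131), the offset (0.0808), and without B6J replicates 1 (0.102), 2 (0.126) or 3 (0.0639) or B6J-*Gtpbp2*-/- replicates 2 (0.134) or 3 (0.16), over a range of 0.00621 to 0.16. There *Ctsh* was lost with the covariate (0.155), the offset (0.319), and without B6J replicates 2 (0.152) or 3 (0.0846) or B6J-*Gtpbp2*-/- replicates 1 (0.0562), 2 (0.105) or 3 (0.154), over a range of 0.00153 to 0.319.

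Transcripts of *Ctsh* were also read separately. The protein_coding transcript Ctsh-201 was at 5.41, 6.33 and 3.55 TPM in B6J, 19.4, 15 and 14.6 in B6J.*Gtpbp1*-/- and 13.4, 11.4 and 13.5 in B6J-*Gtpbp2*-/- mice. Ctsh-202, annotated as nonsense_mediated_decay, was at 8.48, 4.22 and 3.67 TPM in B6J, 3.12, 14.2 and 10.5 in B6J.*Gtpbp1*-/- and 4.36, 9.82 and 9.97 in B6J-*Gtpbp2*-/- mice. Ctsh-204, also protein_coding, was at 10.7, 2.24e-05 and 2.98 TPM in B6J and at most 4 in the mutants, and the other 8 transcripts were at most at 4.13. Ctsh-201 separated B6J from both mutants in TPM and the other 2 named did not, while the effective length of the gene was 1.29 times that of B6J in B6J.*Gtpbp1*-/- libraries.

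*Ctsc*, which activates granule proteases of immune cells, rose in B6J.*Gtpbp1*-/- mice, and *Ctsf* fell there. *Ctsc* RNA was at 9.04, 9.11 and 8.34 CPM in B6J, 14.3, 13.9 and 11.6 in B6J.*Gtpbp1*-/- and 9.13, 14.7 and 13.8 in B6J-*Gtpbp2*-/- mice. In B6J libraries *Ctsf* RNA stood at 94, 91.4 and 90.2 CPM, against 76.7, 64 and 68.3 in B6J.*Gtpbp1*-/- and 91.9, 72.4 and 62.7 in B6J-*Gtpbp2*-/- libraries. The B6J.*Gtpbp1*-/- libraries lay above B6J for *Ctsc* and below B6J for *Ctsf*, while 1 B6J-*Gtpbp2*-/- library, replicate 1, lay with the B6J libraries for each gene. *Ctsc* rose by 0.59 in B6J.*Gtpbp1*-/- mice (SE 0.14, adjusted p = 0.0125), and did not pass the test in B6J-*Gtpbp2*-/- mice (0.51, SE 0.18, adjusted p = 0.118). *Ctsf* fell by 0.40 in B6J.*Gtpbp1*-/- mice (SE 0.08, adjusted p = 0.00462), and did not pass the test in B6J-*Gtpbp2*-/- mice (−0.28, SE 0.12, adjusted p = 0.195). The call of *Ctsf* held under all 16 alternatives, and that of *Ctsc* ended with the *Ddx3y* covariate (adjusted p = 0.0566) and without B6J.*Gtpbp1*-/- replicates 1 (0.0579) or 2 (0.0713), over a range of 0.000912 to 0.0713. Without B6J-*Gtpbp2*-/- replicate 1 both genes were called in B6J-*Gtpbp2*-/- mice (0.0142 for *Ctsc* and 0.0108 for *Ctsf*), and DESeq2 called *Ctsc* (0.0491).

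The most abundant cysteine cathepsin, *Ctsb*, an endopeptidase that also acts as a dipeptidase, was at 527, 544 and 480 CPM in B6J, 519, 468 and 484 in B6J.*Gtpbp1*-/- and 495, 489 and 514 in B6J-*Gtpbp2*-/- mice, with overlapping groups (−0.08 in B6J.*Gtpbp1*-/- mice, SE 0.084, adjusted p = 0.642). *Ctsl*, a broad endopeptidase, gave 0.08 (adjusted p = 0.613), *Ctso* 0.13 (0.481), *Ctsk*, the collagen-degrading cathepsin of osteoclasts, 0.24 (0.534) and *Ctsw* −0.30 (0.733).

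Microglia markers were higher in the same libraries. In B6J.*Gtpbp1*-/- mice 14 of 18 microglia and macrophage markers rose and none fell, with a median of 1.04, and in B6J-*Gtpbp2*-/- mice 12 of 18 rose (median 0.95). Their summed RNA level was 153, 144 and 157 CPM in B6J, 333, 285 and 285 in B6J.*Gtpbp1*-/- and 274, 293 and 307 in B6J-*Gtpbp2*-/- mice. The most abundant, *Csf1r*, was at 29.6, 32.6 and 27.9 CPM in B6J, 58.1, 48.7 and 47.1 in B6J.*Gtpbp1*-/- and 50.7, 48.5 and 52.7 in B6J-*Gtpbp2*-/- mice, and no marker was at 0. Markers of activated microglia gave 9 higher of 13 (median 1.55) and 5 of 12 tested (median 1.49), with sums led by *Apoe* of 824, 935 and 990 CPM in B6J, 1283, 1084 and 1126 in B6J.*Gtpbp1*-/- and 1178, 1167 and 927 in B6J-*Gtpbp2*-/- mice, also with none at 0. *Apoe* made up most of the activated microglia sums, at 680, 791 and 844 CPM in B6J, 1048, 857 and 880 in B6J.*Gtpbp1*-/- and 1011, 876 and 686 in B6J-*Gtpbp2*-/- mice. The part of microglia in the higher cathepsin RNA was not tested.

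Of the aspartic cathepsins, *Ctsd*, a major endopeptidase of lysosomes whose loss causes a neuronal storage disease, rose in both mutants. For *Ctsd* the RNA libraries gave 308, 303 and 270 CPM in B6J, 456, 365 and 392 in B6J.*Gtpbp1*-/- and 364, 393 and 409 in B6J-*Gtpbp2*-/- mice. All 6 mutant libraries exceeded the B6J libraries. *Ctsd* rose by 0.46 in B6J.*Gtpbp1*-/- mice (SE 0.097, adjusted p = 0.00636) and by 0.40 in B6J-*Gtpbp2*-/- mice (SE 0.087, adjusted p = 0.0152). The call in B6J.*Gtpbp1*-/- mice held under all 16 alternatives, and in B6J-*Gtpbp2*-/- mice it ended with the *Ddx3y* covariate (adjusted p = 0.0503) and without B6J replicate 1 (0.0546) or B6J-*Gtpbp2*-/- replicates 2 (0.0508) or 3 (0.0575), over a range of 0.000106 to 0.0575. *Ctse*, known from stomach and immune cells, had 0, 5 and 0 counts in B6J, 17, 22 and 24 in B6J.*Gtpbp1*-/- and 8, 32 and 6 in B6J-*Gtpbp2*-/- mice. Every mutant library was above every B6J library, at counts too few for a fold. *Ctse* missed the threshold in B6J.*Gtpbp1*-/- mice (adjusted p = 0.0509) and passed it with all 9 libraries in a single model (0.0386), with filterByExpr (0.0413), with no filter on low counts (0.00772), with upper quartile normalization (0.0484) and without B6J replicate 2 (0.0142).

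The serine cathepsin *Ctsa*, which protects beta-galactosidase and neuraminidase in a complex, was at 84.1, 79 and 83.1 CPM in B6J, 77.5, 64.5 and 66 in B6J.*Gtpbp1*-/- and 73, 70 and 70.1 in B6J-*Gtpbp2*-/- mice. All mutant libraries lay below B6J in CPM, whereas the groups overlapped in TPM. There *Ctsa* was at 94.4, 78.4 and 83.2 in B6J, 92.3, 75.7 and 80.8 in B6J.*Gtpbp1*-/- and 82.2, 78.8 and 75.1 in B6J-*Gtpbp2*-/- mice. *Ctsa* did not pass the test (−0.24 and −0.21, adjusted p = 0.0753 and 0.11), but did without B6J.*Gtpbp1*-/- replicate 1 (0.0262).

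Neither LAMP gene that reached the count minimum was called. *Lamp1* was at 491, 517 and 521 CPM in B6J, 542, 499 and 508 in B6J.*Gtpbp1*-/- and 516, 503 and 517 in B6J-*Gtpbp2*-/- mice, with overlapping groups (0.02 and 0.01, adjusted p = 0.915 and 0.971). In TPM its mutant libraries all lay above B6J. *Lamp2* RNA was at 123, 123 and 117 CPM in B6J, 141, 134 and 150 in B6J.*Gtpbp1*-/- and 119, 140 and 138 in B6J-*Gtpbp2*-/- mice. The B6J.*Gtpbp1*-/- libraries exceeded B6J, and those of B6J-*Gtpbp2*-/- mice overlapped B6J. *Lamp2*, whose splice forms include a receptor for chaperone-mediated autophagy, gave 0.23 in B6J.*Gtpbp1*-/- mice (SE 0.073, adjusted p = 0.0571), and passed the threshold with DESeq2 (0.028), with protein_coding transcripts alone (0.0372) and with upper quartile normalization (0.0178).

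No member was called in the RNA of B6J.*Gtpbp1*-/- against B6J-*Gtpbp2*-/- mice by edgeR (0 of 39, against 0.0595% of 25190 genes) or by DESeq2, and 2 members had an unadjusted p under 0.05, as had 3.57% of genes. These were *Ctss*, at 0.38 (SE 0.092, adjusted p = 0.773), and *Atp6v0d2*, at −1.59 (SE 0.51, adjusted p = 1), which had 7, 9 and 5 counts in B6J.*Gtpbp1*-/- and 15, 36 and 21 in B6J-*Gtpbp2*-/- mice. The median over members was 0.01, beside 0.00 over all genes.

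Footprints were examined next. In B6J.*Gtpbp1*-/- mice against B6J, edgeR called 0 of 33 members, where 0.745% of 13956 genes were called (0.573% higher and 0.172% lower), while 11 members had an unadjusted p under 0.05 (12.6% of genes) and DESeq2 called 4 (*Ctsc*, *Ctsh*, *Ctsk* and *Ctss*, all higher). The median was 0.14 over the members, 0.66 over the 13 cathepsins tested, −0.05 over 16 V1 and V0 subunits and 0.01 over all genes. At few counts, *Ctsw* gave the largest change (2.90, SE 0.83, adjusted p = 0.142), with 1, 0 and 5 counts in B6J against 30, 27 and 8. *Ctse* gave 1.60 (SE 0.77, adjusted p = 0.419), with 5, 0 and 10 counts in B6J against 15, 17 and 28. For B6J-*Gtpbp2*-/- mice 0 of 33 members were called, where 2.94% of 13797 genes were (1.28% higher and 1.67% lower), while 8 had an unadjusted p under 0.05 (17.1% of genes) and DESeq2 called 6 (*Atp6v0e*, *Ctsc*, *Ctsh* and *Ctss* higher, *Atp6v0c* and *Atp6v1g2* lower). The median was 0.00 over the members, 0.15 over the cathepsins, −0.13 over the V1 and V0 subunits and 0.01 over all genes. Footprint CPM of 11 members lay wholly above B6J, and of 1 wholly below, in B6J.*Gtpbp1*-/- mice, as did 1256 and 1229 of the 13956 genes. In B6J-*Gtpbp2*-/- mice 5 and 6 members did, as did 1521 and 1600 of the 13797 genes.

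**Figure D2:**
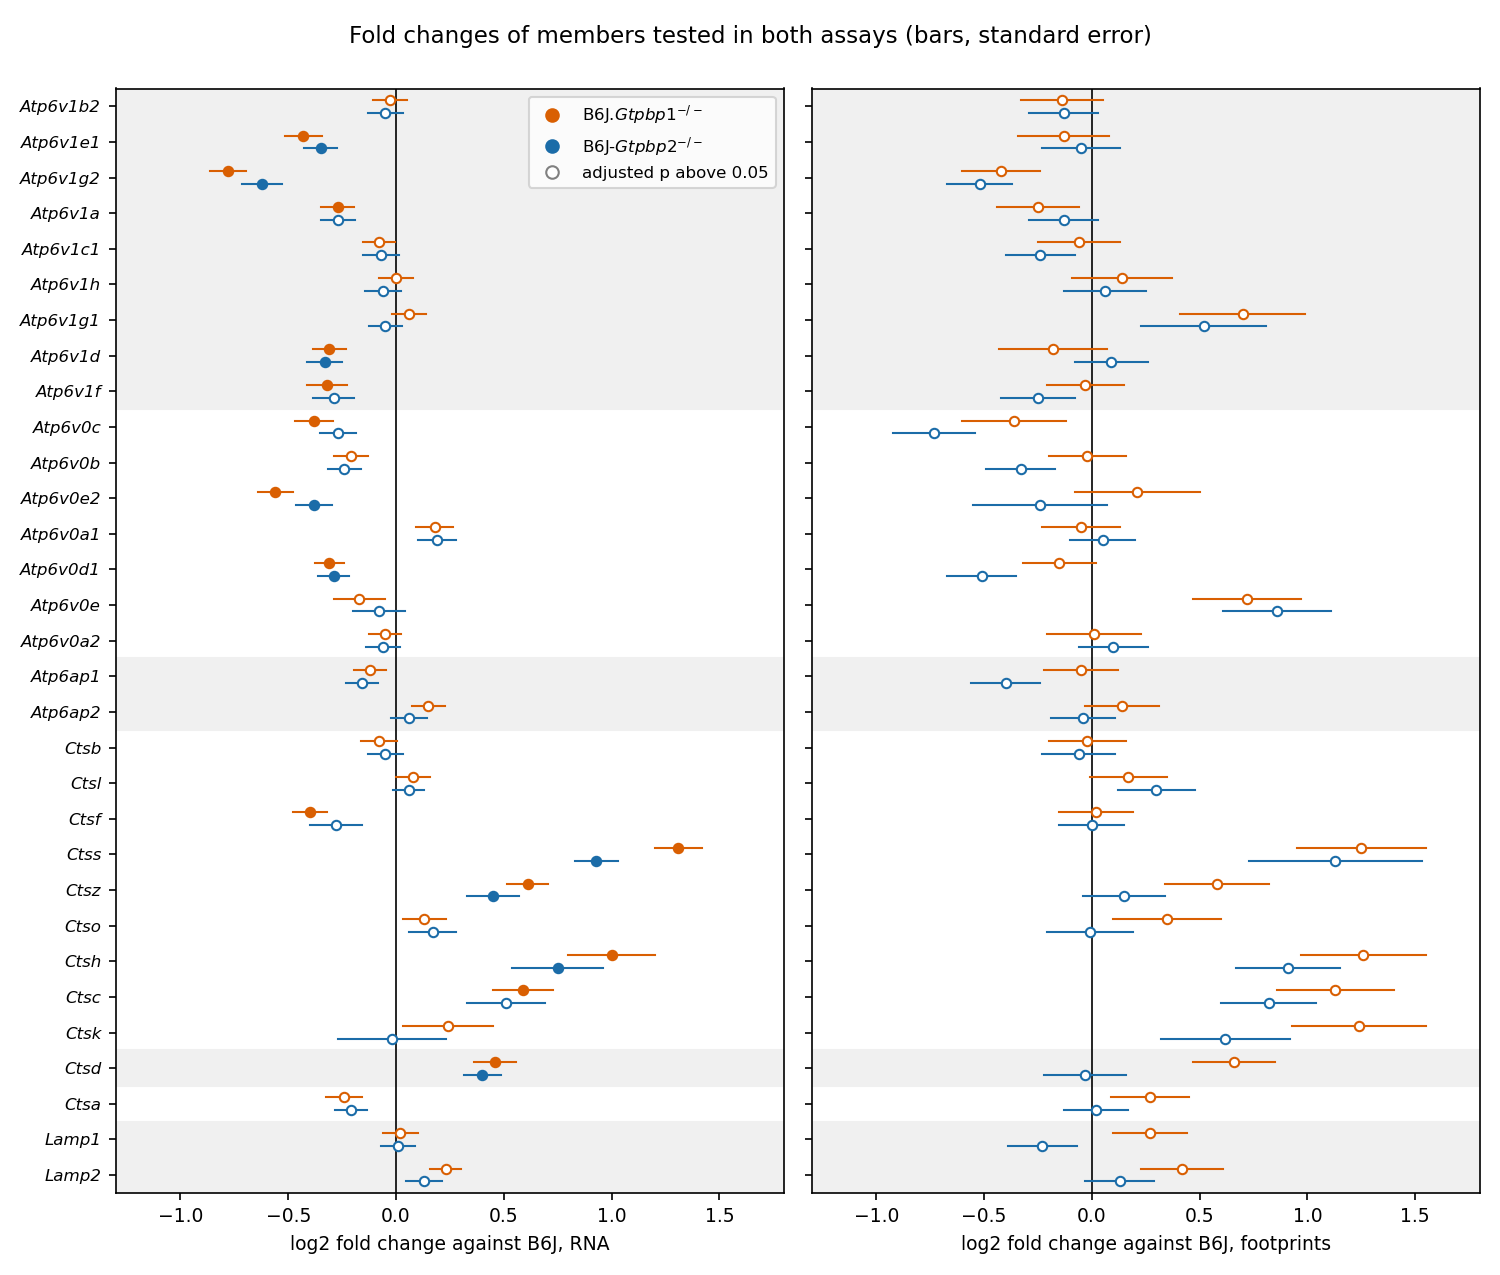
Log2 fold change ± SE of each mutant against B6J in RNA and in footprints, for the members tested in both assays except *Ctse* and *Ctsw*, with filled symbols for an adjusted p of at most 0.05. Filled symbols appear for RNA alone, with called cathepsins to the right, apart from *Ctsf*, and several V-ATPase subunits to the left.

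In B6J libraries *Ctss* footprints stood at 56.4, 52.8 and 28.9 CPM, against 137, 67.3 and 122 in B6J.*Gtpbp1*-/- and 79.5, 62.4 and 160 in B6J-*Gtpbp2*-/- libraries. For *Ctsh* the footprint libraries gave 28.9, 15.2 and 28.4 CPM in B6J, 79.5, 46.5 and 48.4 in B6J.*Gtpbp1*-/- and 53.7, 44 and 40.4 in B6J-*Gtpbp2*-/- mice. *Ctsc* footprints were at 15.9, 17.6 and 15.6 CPM in B6J, 48.1, 23.3 and 35.9 in B6J.*Gtpbp1*-/- and 28, 25.3 and 33.6 in B6J-*Gtpbp2*-/- mice. For *Ctss*, *Ctsh* and *Ctsc* all 6 mutant libraries lay above the 3 B6J libraries. Fold changes in B6J.*Gtpbp1*-/- mice were 1.25 for *Ctss* (SE 0.30, adjusted p = 0.0843), 1.26 for *Ctsh* (SE 0.29, 0.0658) and 1.13 for *Ctsc* (SE 0.27, 0.0826). In B6J libraries *Ctsk* footprints stood at 6.04, 10.8 and 7.78 CPM, against 16.7, 24.8 and 16.4 in B6J.*Gtpbp1*-/- and 11.4, 14.3 and 12.6 in B6J-*Gtpbp2*-/- libraries. *Ctsk* was likewise higher in each mutant library than in any B6J library (1.24, SE 0.31, adjusted p = 0.0898 in B6J.*Gtpbp1*-/- mice). In B6J-*Gtpbp2*-/- mice the values were 1.13 for *Ctss* (adjusted p = 0.22), 0.91 for *Ctsh* (0.0542), 0.82 for *Ctsc* (0.0572) and 0.62 for *Ctsk* (0.313).

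Several alternatives moved these 4 genes past the threshold in B6J.*Gtpbp1*-/- mice. *Ctss* was called with the *Ddx3y* covariate (adjusted p = 0.043), with no filter on low counts (0.0392) and without B6J.*Gtpbp1*-/- replicate 2 (0.0202). *Ctsc* was called with no filter (0.0314), with all 9 libraries in a single model (0.0437) and without replicate 2 (0.0296), *Ctsh* with no filter (0.0215), with all 9 libraries (0.0342) and without replicate 3 (0.048), and *Ctsk* with no filter (0.0467) and with all 9 libraries (0.0468). *Ctsh* was called in B6J-*Gtpbp2*-/- mice with no filter (0.0162) and without B6J replicate 3 (0.0316), and *Ctsc* with no filter (0.0439).

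Counts over all genes moved with single libraries too. From 80 higher and 24 lower in B6J.*Gtpbp1*-/- mice, they went to 18 and 4, 37 and 4, and 89 and 97 without B6J replicates 1, 2 and 3, and to 31 and 6 and 115 and 67 without B6J.*Gtpbp1*-/- replicates 1 and 3. From 176 higher and 230 lower in B6J-*Gtpbp2*-/- mice, they went to 96 and 90 and 297 and 322 without B6J replicates 2 and 3, and to 55 and 51 and 83 and 68 without B6J-*Gtpbp2*-/- replicates 1 and 2.

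For *Ctsd* the footprint libraries gave 194, 244 and 244 CPM in B6J, 398, 289 and 389 in B6J.*Gtpbp1*-/- and 189, 184 and 300 in B6J-*Gtpbp2*-/- mice. *Ctsd* was higher in B6J.*Gtpbp1*-/- libraries than in B6J, while B6J-*Gtpbp2*-/- libraries lay on both sides of B6J (0.66, adjusted p = 0.148; −0.03, adjusted p = 0.959). *Ctsz*, also called higher in the RNA of both mutants, overlapped B6J in the footprints of both (0.58 and 0.15, adjusted p = 0.318 and 0.746). *Ctsb*, with the most footprints per length, was at 1366, 1583 and 1280 CPM in B6J, 1442, 1300 and 1434 in B6J.*Gtpbp1*-/- and 1228, 1320 and 1548 in B6J-*Gtpbp2*-/- mice, with fully overlapping groups (−0.02, adjusted p = 0.98; −0.06, adjusted p = 0.905). Microglia markers gave 5 higher of 17 in the footprints of each mutant (medians 1.20 and 0.55), with sums of 270, 315 and 262 CPM in B6J, 798, 431 and 842 in B6J.*Gtpbp1*-/- and 431, 408 and 634 in B6J-*Gtpbp2*-/- mice, and their part was not tested.

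The part of other marker lists in the footprints was not tested either. Markers of osteoclasts, where *Ctsk* is abundant, gave 0 of 6 in each by edgeR (2 and 0 at an unadjusted p under 0.05, none by DESeq2), with sums of 14.5, 24.2 and 31.1 CPM in B6J, 27.7, 92 and 42.9 in B6J.*Gtpbp1*-/- and 19.2, 38.8 and 30.4 in B6J-*Gtpbp2*-/- mice, the order kept for the next lists. Activated microglia markers gave 0 of 11 and 1 higher of 10 by edgeR (8 and 4 at an unadjusted p under 0.05, 5 and 3 by DESeq2, medians 0.93 and 0.72), with sums of 2948, 3606 and 3072, of 4619, 3692 and 8435, and of 3558, 3202 and 6330 CPM. Endothelial markers gave 1 and 3 higher of 8 (7 and 8 at an unadjusted p under 0.05, medians 0.85 and 0.66), with sums of 513, 381 and 553, of 1215, 872 and 679, and of 929, 845 and 827 CPM. Neutrophil markers gave 0 of 8 and 0 of 2 by edgeR (5 and 0 at an unadjusted p under 0.05, none by DESeq2, medians 1.39 and 0.07), with sums of 10.1, 2.42 and 23.7, of 31.3, 38 and 28, and of 6.4, 15.7 and 10.6 CPM. Bone and fibroblast markers, led by *Sparc*, gave 0 of 11 in each (9 and 2 at an unadjusted p under 0.05, 1 and 0 by DESeq2), with sums of 2924, 3503 and 3085, of 5062, 4476 and 8334, and of 3813, 3914 and 4780 CPM. Choroid plexus markers, led by *Ttr*, gave 0 of 7 in each by edgeR (1 and 0 at an unadjusted p under 0.05, none by DESeq2), with sums of 5694, 3853 and 79.3, of 13824, 234 and 12165, and of 516, 9632 and 9735 CPM, where B6J.*Gtpbp1*-/- replicate 2 was the lowest of its group, as it was for *Ctss*, *Ctsh*, *Ctsc* and *Ctsd*. For *Ctsk* that library was the highest of its group (24.8 CPM), as it was for the osteoclast marker sum (92 CPM). Replicate 2 was also highest for both in B6J-*Gtpbp2*-/- mice (14.3 and 38.8 CPM). In B6J, replicate 2 was highest for *Ctsk* (10.8 CPM) but replicate 3 for the osteoclast markers (31.1 CPM). B6J-*Gtpbp2*-/- replicate 1, with the lowest choroid plexus sum of its group, had the highest *Ctsh* footprints there (53.7 CPM). Sums of endothelial and bone markers lay above B6J in all mutant libraries. Those of activated microglia and neutrophils lay above B6J in every B6J.*Gtpbp1*-/- library. Among B6J-*Gtpbp2*-/- libraries only replicate 3 did so, for activated microglia (6330 CPM). Most of the activated microglia sum was *Apoe*, at 2561, 3221 and 2642 CPM in B6J, 3904, 3104 and 7777 in B6J.*Gtpbp1*-/- and 3127, 2778 and 5613 in B6J-*Gtpbp2*-/- mice. Most of the bone sum was *Sparc*, at 2532, 2639 and 2062, at 3142, 2928 and 5426, and at 3052, 2725 and 4162. These 2 sums therefore largely follow 1 gene each.

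*Atp6v1g2* footprints were at 317, 284 and 328 CPM in B6J, 235, 265 and 195 in B6J.*Gtpbp1*-/- and 219, 231 and 205 in B6J-*Gtpbp2*-/- mice. In B6J libraries *Atp6v0c* footprints stood at 366, 554 and 411 CPM, against 242, 335 and 458 in B6J.*Gtpbp1*-/- and 208, 275 and 325 in B6J-*Gtpbp2*-/- libraries. *Atp6v1g2* was lower in all 6 mutant libraries than in B6J, and *Atp6v0c* was lower in B6J-*Gtpbp2*-/- libraries alone, those of B6J.*Gtpbp1*-/- mice reaching into the B6J range. *Atp6v1g2* gave −0.42 in B6J.*Gtpbp1*-/- (SE 0.18, adjusted p = 0.348) and −0.52 in B6J-*Gtpbp2*-/- mice (SE 0.15, 0.0718), and *Atp6v0c* gave −0.36 (0.574) and −0.73 (SE 0.19, 0.0575). *Atp6v0c* was called in B6J-*Gtpbp2*-/- mice with no filter on low counts (0.0161) and without B6J-*Gtpbp2*-/- replicate 3 (0.0379). Several other members that fell in RNA overlapped B6J in footprints, with *Atp6v0e2* at 0.21, *Atp6v1e1* at −0.13, *Atp6v1d* at −0.18 and *Ctsf* at 0.02 in B6J.*Gtpbp1*-/- mice and the first 3 at −0.24, −0.05 and 0.09 in B6J-*Gtpbp2*-/- mice (adjusted p from 0.754 to 0.98). *Atp6v0d1* footprints overlapped B6J in B6J.*Gtpbp1*-/- mice (−0.15, adjusted p = 0.784). In B6J-*Gtpbp2*-/- mice they lay below B6J, at 321, 341 and 415 against 452, 532 and 537 CPM (−0.51, SE 0.16, adjusted p = 0.103). *Atp6v1f* footprints were also below B6J in each B6J-*Gtpbp2*-/- library (−0.25, adjusted p = 0.484). For *Atp6v0e* the footprint libraries gave 32.9, 31.9 and 31.6 CPM in B6J, 49, 36.7 and 73.3 in B6J.*Gtpbp1*-/- and 37.8, 53.3 and 84.2 in B6J-*Gtpbp2*-/- mice. In footprints *Atp6v0e* was highest in mutant libraries without overlap with B6J, although its RNA was not called (0.72, adjusted p = 0.221 in B6J.*Gtpbp1*-/-; 0.86, adjusted p = 0.0828 in B6J-*Gtpbp2*-/- mice), and it was called in B6J-*Gtpbp2*-/- mice with no filter (0.0335) and without B6J-*Gtpbp2*-/- replicate 1 (0.0438).

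Granule neuron markers gave 0 of 11 called in the footprints of B6J.*Gtpbp1*-/- mice by edgeR (7 at an unadjusted p under 0.05, 1 lower by DESeq2, median −0.60) and 7 of 11 lower in B6J-*Gtpbp2*-/- mice (median −1.03). Their sums were 6103, 8677 and 6573 CPM in B6J, 4968, 3814 and 5644 in B6J.*Gtpbp1*-/- and 3914, 3749 and 3273 in B6J-*Gtpbp2*-/- mice. Purkinje cell markers gave 0 of 9 in each by edgeR (1 and 3 at an unadjusted p under 0.05, 0 and 2 by DESeq2, the 2 higher), with medians of 0.10 and 0.43, opposite in sign to those in RNA. Their footprint sums, led by *Itpr1*, were 12384, 8111 and 16452 CPM in B6J, 15079, 16486 and 9044 in B6J.*Gtpbp1*-/- and 18689, 18773 and 16254 in B6J-*Gtpbp2*-/- mice, with overlap between all groups, and no marker was at 0. The part of both lists in the footprints of V-ATPase subunits was not tested.

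Between the mutants, edgeR called 0 of 33 members and 0 of 14142 genes in footprints, 4 members had an unadjusted p under 0.05 (10.8% of genes) and DESeq2 called no member. The 4 were *Ctsd* at 0.67 (adjusted p = 0.347), *Lamp1* at 0.49 (0.357), *Ctse* at 1.47 (0.392) and *Ctsk* at 0.61 (0.42), all higher in B6J.*Gtpbp1*-/- mice. *Lamp1* footprints were at 1198, 1073 and 1066 CPM in B6J, 1372, 1215 and 1436 in B6J.*Gtpbp1*-/- and 889, 913 and 1062 in B6J-*Gtpbp2*-/- mice. For *Lamp1* the B6J.*Gtpbp1*-/- libraries were the highest and the B6J-*Gtpbp2*-/- libraries the lowest of the 9. The members' median was 0.21, beside 0.00 over all genes.

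Translational efficiency (TE), the footprints of a gene relative to its RNA, was tested as the interaction of assay and genotype. By edgeR 0 of 32 members were called in B6J.*Gtpbp1*-/- mice (0% of 13086 genes, 5 members and 8.94% of genes at an unadjusted p under 0.05, no member by DESeq2) and 0 of 31 in B6J-*Gtpbp2*-/- mice (0.00773% of 12931 genes, 2 members and 12% of genes at an unadjusted p under 0.05, no member by DESeq2). Member medians were 0.18 and 0.11, beside 0.03 over all genes in each. *Atp6v0e* had the smallest p in both, with a TE difference of 0.89 (SE 0.29, adjusted p = 0.477) and 0.95 (SE 0.30, 0.253). In B6J.*Gtpbp1*-/- mice the others under 0.05 were *Ctsk* at 1.01, *Ctsa* at 0.52, *Ctsf* at 0.42 and *Atp6v0e2* at 0.77 (adjusted p from 0.481 to 0.536), and in B6J-*Gtpbp2*-/- mice *Atp6v1d* at 0.42 (0.409). Without the footprint library of B6J replicate 3, *Atp6v0e2* (1.16, adjusted p = 0.0386) and *Atp6v1g1* (1.02, 0.0479) were called in B6J.*Gtpbp1*-/- mice, with 69 genes higher and 105 lower in all.

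In the TE of B6J.*Gtpbp1*-/- against B6J-*Gtpbp2*-/- mice, edgeR called 0 of 33 members and 0 of 13292 genes, 4 members had an unadjusted p under 0.05 (11.2% of genes) and DESeq2 called no member. The median was 0.18 over the members and 0.01 over all genes.

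Genes that act with the members were read from 7 companion lists, whose RNA counts stand beside shares of 13.8% (B6J.*Gtpbp1*-/-) and 8.63% (B6J-*Gtpbp2*-/-) over all genes. Of 16 genes listed as assembly factors and regulators of the V-ATPase, 1 rose and 3 fell in the RNA of B6J.*Gtpbp1*-/- mice (median −0.13) and 4 fell in B6J-*Gtpbp2*-/- mice (median −0.18). The list also held *Tcirg1*, the gene of a V0 a subunit outside the symbol rule, and *Atp6v0c-ps2*, a pseudogene by its name. *Rnasek*, a small membrane protein bound to the V-ATPase, was at 78.8, 75.5 and 72 CPM in B6J, 53.6, 47.5 and 46.8 in B6J.*Gtpbp1*-/- and 54.3, 47.7 and 48.7 in B6J-*Gtpbp2*-/- mice. Mutant libraries lay well below B6J. *Rnasek* fell by 0.61 (adjusted p = 0.000265) and by 0.59 (0.0016), and both calls held under all 16 alternatives. *Ncoa7*, a TLDc protein that binds the pump, fell by 0.47 (0.000945) and 0.42 (0.0138), the second call ending with the *Ddx3y* covariate (0.0532), the offset (0.0552), and without B6J replicates 1 (0.0709) or 2 (0.0615) or B6J-*Gtpbp2*-/- replicate 2 (0.0546).

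*Rogdi*, a part of the complex that rejoins V1 and V0, fell by 0.54 (adjusted p = 0.00289) and 0.49 (0.00996) in RNA, with both calls ended by the offset (0.0845 and 0.175). It was also lower in the footprints of B6J-*Gtpbp2*-/- mice, at 132, 117 and 142 CPM in B6J, 94.5, 115 and 100 in B6J.*Gtpbp1*-/- and 82.3, 79.4 and 94.5 in B6J-*Gtpbp2*-/- mice. All mutant libraries lay below B6J. This footprint call (−0.62, adjusted p = 0.0482) was lost in 10 of 14 alternatives, among them the absence of any 1 of the 6 libraries (B6J 0.135, 0.0619 and 0.0939; B6J-*Gtpbp2*-/- 0.21, 0.189 and 0.0618). *Ccdc115*, needed to assemble V0, rose by 0.45 in B6J.*Gtpbp1*-/- mice (0.0122), except without replicate 1 of that group (0.0599).

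Of 35 other lysosomal hydrolases, 2 rose and 3 fell in B6J.*Gtpbp1*-/- mice (median 0.00), and 1 rose and 1 fell in B6J-*Gtpbp2*-/- mice (median −0.02), so the share called was close to that of all genes in the former and below it in the latter. *Scpep1*, a serine carboxypeptidase, rose by 0.67 (adjusted p = 0.00297) in B6J.*Gtpbp1*-/- mice under all 16 alternatives. In these mice *Ppt1*, a thioesterase, fell by 0.31 (0.00973), *Manba*, a mannosidase, by 0.38 (0.0382) and *Arsa*, a sulfatase, by 0.32 (0.0435), and *Manba* fell by 0.53 in B6J-*Gtpbp2*-/- mice (0.0495). The *Manba* calls were lost in 11 and 10 of 16 alternatives (up to 0.18 and 0.175). They were lost without B6J replicates 1 (0.14 and 0.175) or 2 (0.0975 and 0.132) and without replicate 1 (0.115 and 0.0868), 2 (0.0957 and 0.0602) or 3 (0.0922 and 0.0873) of the mutant. That of *Arsa* was lost in 10 (up to 0.169), among them without B6J replicates 1 (0.136) or 2 (0.0859) or B6J.*Gtpbp1*-/- replicates 1 (0.106), 2 (0.142) or 3 (0.086).

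Of 32 membrane and transport proteins of the lysosome, 4 rose and 6 fell in B6J.*Gtpbp1*-/- (median −0.11), and 4 rose and 4 fell in B6J-*Gtpbp2*-/- mice (median −0.10). *Laptm5*, a lysosomal protein of blood-derived cells, was at 8.72, 9.18 and 8.28 CPM in B6J, 23.3, 18.7 and 18.3 in B6J.*Gtpbp1*-/- and 19.9, 20.3 and 21.9 in B6J-*Gtpbp2*-/- mice. Each mutant library was above each B6J library. *Laptm5* rose by 1.21 (adjusted p = 5.2e-05) and 1.24 (0.000151), and *Grn*, which encodes progranulin, by 0.54 (0.00132) and 0.51 (0.00217), all under each of 16 alternatives. *Cd63* rose by 0.46 in B6J.*Gtpbp1*-/- mice (0.00359). *Sidt2* fell by 0.40 (0.00273) and 0.35 (0.0286), the peptide transporter *Abcb9* by 0.45 in each (0.00583 and 0.0119), and *Mfsd12* by 0.39 in B6J.*Gtpbp1*-/- mice (0.0102), except without replicate 2 of that group (0.0732). Both *Sidt2* and *Abcb9* were lost in B6J-*Gtpbp2*-/- mice with the *Ddx3y* covariate (0.089 and 0.0532) and without B6J replicates 1 (0.128 and 0.0622) or 2 (0.0918 and 0.0564) or B6J-*Gtpbp2*-/- replicate 2 (0.11 and 0.0553), and *Sidt2* also without replicate 3 (0.118), with protein_coding transcripts alone (0.0503) and with upper quartile normalization (0.0537).

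In footprints of B6J.*Gtpbp1*-/- mice *Laptm5* rose by 1.46 (adjusted p = 0.0246), from 19.5, 28.2 and 20.3 CPM to 63.4, 41.4 and 82.1, with 28.9, 26.9 and 46.5 in B6J-*Gtpbp2*-/- mice. *Abcb9* fell by 0.89 in footprints of B6J-*Gtpbp2*-/- mice (0.0189), from 53.7, 70.5 and 52.4 CPM to 30.3, 36.3 and 29.6, with 39, 48.8 and 57.3 in B6J.*Gtpbp1*-/- mice. For each gene the mutant named lay wholly outside the B6J range. The call of *Laptm5* ended with the *Ddx3y* covariate (0.0676) and without B6J replicates 1 (0.179) or 3 (0.0612) or B6J.*Gtpbp1*-/- replicate 1 (0.0781). That of *Abcb9* ended with the covariate (0.334) and without B6J replicate 2 (0.0848) or B6J-*Gtpbp2*-/- replicates 1 (0.115), 2 (0.0522) or 3 (0.066).

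Of 14 listed cathepsin inhibitors, 8 were tested, of which 4 rose in B6J.*Gtpbp1*-/- (median 0.51) and 3 in B6J-*Gtpbp2*-/- mice (median 0.22). *Cst3*, the secreted cystatin C, was at 217, 212 and 250 CPM in B6J, 388, 320 and 283 in B6J.*Gtpbp1*-/- and 431, 304 and 314 in B6J-*Gtpbp2*-/- mice. *Serpina3n*, a serpin that blocks neutrophil proteases, was at 2.32, 3.8 and 2.5, at 13.1, 10.1 and 12.5, and at 9.98, 8.96 and 10.4. *Cst7*, a cystatin of immune cells, was at 0, 0.0216 and 0.0993, at 1.75, 1.63 and 1.85, and at 0.981, 1.9 and 2.54. For all 3 genes each mutant library exceeded each B6J library. *Cst3* rose by 0.54 (adjusted p = 0.00616) and 0.63 (0.0153, lost with the *Ddx3y* covariate at 0.0767 and without B6J replicates 1 at 0.0809 or 2 at 0.0778), *Serpina3n* by 2.05 (2.99e-05) and 1.77 (0.000651), and *Cst7*, near 0 in B6J, passed in both (0.000155 and 0.0013).

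Of 20 genes of mannose 6-phosphate and lysosomal sorting, edgeR called 1 lower in B6J.*Gtpbp1*-/- mice, *Vps18* (−0.32, adjusted p = 0.0467), and 0 in B6J-*Gtpbp2*-/- mice, where 0 had an unadjusted p under 0.05 and DESeq2 called 0 (medians −0.01 and 0.00). *Vps18* was lost in 9 of 16 alternatives (up to 0.219), among them without B6J replicates 1 (0.138) or 2 (0.17) or B6J.*Gtpbp1*-/- replicates 1 (0.0673), 2 (0.219) or 3 (0.0747). Of 18 genes of the Ragulator and amino acid sensing, 1 rose and 2 fell in B6J.*Gtpbp1*-/- mice (median −0.09) and 2 fell in B6J-*Gtpbp2*-/- mice (median −0.06). These were *Fnip1* (0.34, 0.0196), *Rragd* (−0.29, 0.0491) and *Lamtor5* (−0.32, 0.0455) in B6J.*Gtpbp1*-/- and *Rragd* (−0.42, 0.016) and *Lamtor4* (−0.52, 0.0376) in B6J-*Gtpbp2*-/- mice. *Fnip1* was lost in 6 of 16 alternatives, among them without B6J replicate 1 (0.117) or B6J.*Gtpbp1*-/- replicates 1 (0.0559) or 3 (0.0767), and *Lamtor5* in 10, among them without B6J replicates 1 (0.133) or 2 (0.0803) or B6J.*Gtpbp1*-/- replicates 1 (0.15), 2 (0.0884) or 3 (0.0708). *Rragd* was lost in 10 in B6J.*Gtpbp1*-/- mice, among them without B6J replicates 1 (0.0877) or 2 (0.199) or B6J.*Gtpbp1*-/- replicates 1 (0.139) or 2 (0.212), and in 4 in B6J-*Gtpbp2*-/- mice, among them without B6J replicates 1 (0.0515) or 2 (0.0705) or B6J-*Gtpbp2*-/- replicate 3 (0.0553). *Lamtor4* was lost in 10, among them without B6J replicates 1 (0.0541), 2 (0.0778) or 3 (0.0922) or B6J-*Gtpbp2*-/- replicates 2 (0.111) or 3 (0.121).

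The last list held the MiT/TFE factors, which bind the motif described below, and the zinc finger repressor *Zkscan3*. Of its 4 genes tested, *Tfeb* was lower in B6J.*Gtpbp1*-/- mice (−0.49, adjusted p = 0.0263) and edgeR called 0 in B6J-*Gtpbp2*-/- mice (1 at an unadjusted p under 0.05, 0 by DESeq2). *Tfeb* was lost in 8 of 16 alternatives (up to 0.225), among them without B6J replicates 2 (0.0685) or 3 (0.065) or B6J.*Gtpbp1*-/- replicates 1 (0.081), 2 (0.0646) or 3 (0.0847).

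In RNA, oligodendrocyte markers gave 7 lower of 9 in B6J.*Gtpbp1*-/- mice (median −0.39) and 0 of 9 in B6J-*Gtpbp2*-/- mice by edgeR (0 by DESeq2 and 0 at an unadjusted p under 0.05, median −0.01), with sums led by *Mbp* of 12485, 11065 and 12786 CPM in B6J, 9398, 9446 and 8100 in B6J.*Gtpbp1*-/- and 13579, 10160 and 11029 in B6J-*Gtpbp2*-/- mice. Astrocyte and Bergmann glia markers gave 1 higher and 3 lower of 10 in each mutant. Endothelial markers gave 4 and 2 higher of 8 (medians 0.35 and 0.51). Bone and fibroblast markers gave 2 higher of 10 and, by edgeR, 0 of 11 (1 by DESeq2 and 1 at an unadjusted p under 0.05). Osteoclast markers, which bear on *Ctsk*, gave 0 of 8 and 0 of 9 by edgeR (2 at an unadjusted p under 0.05 in each, 0 and 1 by DESeq2). Neutrophil markers, which bear on *Ctsg*, gave 0 of 8 in each by edgeR (1 at an unadjusted p under 0.05 in each, 0 by DESeq2), with sums of at most 5.22 CPM. Choroid plexus markers, led by *Ttr*, gave 0 of 7 in each by edgeR (1 and 0 at an unadjusted p under 0.05, 0 by DESeq2), with sums from 84.4 to 1810 CPM that varied within every genotype.

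Promoter sequences of the members were searched for a motif bound by MiT/TFE factors, the palindrome TCACGTGA, and for its core, the E-box CACGTG, which overlaps it. Windows from 250 bases before to 50 after the annotated start were taken from RefSeq on GRCm38.p6, where 36 of the 46 members matched, with 40 windows. The palindrome was found in 5 of 40 windows (12.5%, exact 95% interval 4.19% to 26.8%), and in 320 of 32851 windows of all genes (0.974%). CACGTG on its own or within the palindrome was found in 9 of 40 (22.5%) and in 2349 of all windows (7.15%). Both motifs read the same on either strand, so 1 search covers both. The 5 windows are shown because they hold members that fell, rose and did not pass the test in RNA, with the first palindrome in capitals and 10 bases on each side, each read 5′ to 3′ on the strand of its gene.
Atp6v0d1, chr8:105566051-105566078, minus strand: cctactgcggTCACGTGAgacgcggtgc
Atp6v1a, chr16:44139374-44139401, minus strand: tttttttaaaTCACGTGAtaggcttaac
Atp6v0e, chr17:26676388-26676415, plus strand: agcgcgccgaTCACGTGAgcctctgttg
Ctsd, chr7:142387909-142387936, minus strand: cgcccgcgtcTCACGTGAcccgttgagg
Ctsa, chr2:164833750-164833777, plus strand: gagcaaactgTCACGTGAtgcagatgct

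The window of *Ctsa* holds a second palindrome and that of *Ctsd* a further CACGTG. The genes with the palindrome did not share a direction in RNA. In B6J.*Gtpbp1*-/- mice *Atp6v0d1* and *Atp6v1a* fell, *Ctsd* rose, and *Atp6v0e* and *Ctsa* did not pass the test. Without the palindrome, CACGTG stood in windows of *Atp6v0b* (2 copies), *Ctsf*, *Ctsl* and *Lamp1*, the last with 4 copies, of which the first is ggcaagatatCACGTGgtccagcgcc at chr8:13159090-13159115 on the plus strand. A match is a description of the window and not of binding.

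Codon content was computed because the shared tRNA mutation affects AGA codons. AGA made up a median of 1.03% of codons over the 46 members and 1.12% over 21584 genes.

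Positions on GRCm38 set some limits on the counts. *Ctss* (chr3:95526786-95556403) and *Ctsk* (chr3:95499256-95509362) are neighbours on the same strand, *Ctsj*, *Ctsm*, *Ctsq* and *Ctsr* lie together on chromosome 13, and *Atp6ap1*, *Atp6ap2* and *Lamp2* are on the X chromosome. The RNA kit does not mark strand, so exons shared with a gene on the other strand cannot be told apart, which concerns *Atp6v1g2* (chr17:35233660-35238767; 144 bases with *Nfkbil1*), *Ctsb* (774 bases with *Fdft1*), *Ctsa* (495 with *Pltp* and 324 with *Neurl2*), *Lamp1* (249 with *Grtp1*), *Ctsl* (1742 with *Gm47123*), *Atp6v0a2* (663 bases), *Atp6v1e2* (383), *Atp6v0b* (243), *Atp6v1fnb* (168), *Atp6v1h* (127), *Atp6v0a4* (62), *Atp6v1c2* (50), *Atp6v1e1* (32), *Ctsz* (10) and *Ctsw* (9). On the same strand, *Ctsd* (chr7:142375911-142388038) shares 808 bases with *Gm49369*, *Atp6v0a4* shares 259 with *D630045J12Rik*, *Ctsl* shares 395 with the pseudogene *Gm49230* and *Ctsm* shares 382 with *Gm49352*, so their counts are uncertain by what was assigned to these.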

How the data were processed

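Per the study's methods, the authors pseudoaligned RNA reads (poly(A), 2 × 100 bases) to mouse transcripts with kallisto 0.42.4, and its estimated counts and TPM per transcript were used as deposited. For footprints (RNase I, 26 to 34 bases), rRNA reads were removed with Bowtie2 2.2.3, the rest aligned with HISAT2 2.1.0, and the deposited counts of reads on coding sequence made with featureCounts. Estimated counts were summed per gene and rounded. Genes with at least 5 counts in 3 of 6 libraries (for TE, 10 counts in 3 of 6 of each assay) were tested with the edgeR 4.0.16 quasi-likelihood test after TMM scaling in R 4.3.3, in the 2 genotypes compared, two-sided, with Benjamini-Hochberg adjustment over all genes tested. TE was the assay by genotype term, where the study used riborex on exon counts of RNA, and of its histone filters only that on the prefix Hist was applied. The fits were tested on simulated data. Alternatives were DESeq2 1.42.0, other scaling and filters, all libraries in 1 model, a *Ddx3y* indicator (at least 10 CPM), an effective length offset, protein_coding transcripts alone, a replicate block and leaving out each library.

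Per-library values are given for members with an adjusted p of at most 0.05 in the RNA of either mutant, at most 12 per direction by smallest adjusted p, and likewise for footprints and TE, at most 8 each. The highest and lowest member by mean TPM is named in each role, as are up to 3 genes per direction in each companion list, and *Gtpbp1* and *Gtpbp2*. Members and lists were chosen with earlier results of these data known, and other genes named were chosen after their values were seen. 1 of the lysosomal hydrolases counted is not reported here by itself.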

Additional observations from a re-analysis of the deposited data

How the results depend on the processing

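No call of a member reversed its sign, but medians near 0 did, among them the members' RNA median in B6J.*Gtpbp1*-/- mice, which was −0.03 and moved to 0.01 with the replicate block and 0.02 with upper quartile normalization. In the cases listed, the cause was not tested. For RNA of B6J.*Gtpbp1*-/- against B6J, the 3398 genes called became 2231 with the effective length offset and 2237 with the replicate block, and 1890 to 3798 with 1 library left out, where the members called higher were 4 to 6, those called lower 5 to 9, and the median −0.06 to 0.05. For RNA of B6J-*Gtpbp2*-/- against B6J, the 2146 genes became 3409 with DESeq2, 1071 with the *Ddx3y* covariate, 1360 with the offset, and 953 to 2357 with 1 library left out. The 4 members higher became 1 with the covariate, 2 with the offset, 2 with the replicate block, and 1 to 4 with 1 library left out. The 5 members lower became 9 with DESeq2, 1 with the covariate, 3 with the offset, 3 with upper quartile normalization, and 1 to 7 with 1 library left out. Their median of −0.05 became −0.01 with upper quartile normalization and −0.07 to 0.00 with 1 library left out. For RNA of the mutants against each other, 15 genes became 46 with DESeq2, 9 with the covariate, 36 with no filter on low counts, 5 with protein_coding transcripts alone, and 9 to 17 with 1 library left out.

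For footprints of B6J.*Gtpbp1*-/- against B6J, the 104 genes became 406 with DESeq2, 56 with the covariate, 202 with all 9 libraries in 1 model, 213 with no filter, 44 with the replicate block, and 22 to 186 with 1 library left out. The 0 members higher by edgeR (11 at an unadjusted p under 0.05 in either direction) became 4 with DESeq2, 1 with the covariate, 3 with all 9 libraries, 4 with no filter, and 0 to 2 with 1 library left out. For B6J-*Gtpbp2*-/- against B6J, the 406 genes became 655 with DESeq2, 45 with the covariate, 268 with all 9 libraries, and 106 to 619 with 1 library left out. The 0 members higher by edgeR (8 at an unadjusted p under 0.05 in either direction) became 4 with DESeq2, 3 with no filter, 1 with the replicate block, and 0 to 1 with 1 library left out, and the 0 lower became 2 with DESeq2, 1 with no filter, 1 with the replicate block, and 0 to 1 with 1 library left out. The median of 0.00 became −0.13 with the covariate and −0.06 to 0.08 with 1 library left out. Between the mutants, 0 genes by edgeR became 100 with DESeq2, 1 with all 9 libraries, 15 with no filter, 1 with the replicate block, 3 with upper quartile normalization, and 0 to 33 with 1 library left out, and the members' median of 0.21 became 0.09 with the covariate and 0.10 to 0.31 with 1 library left out.

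For TE of B6J.*Gtpbp1*-/- against B6J, 0 genes by edgeR became 58 with DESeq2, 1 with protein_coding transcripts alone, and 0 to 174 with 1 library left out, where 0 to 2 members were higher. For B6J-*Gtpbp2*-/- against B6J, 1 gene became 160 with DESeq2, 5 with all 18 libraries in 1 model, 2 with a mean count of at least 1, 2 with protein_coding transcripts alone, 0 with the replicate block, and 0 to 158 with 1 library left out, where the median of 0.11 became −0.11 to 0.12. Between the mutants, 0 genes became 155 with DESeq2 and 0 to 177 with 1 library left out, where the median of 0.18 became 0.09 to 0.32. With TPM of protein_coding transcripts alone, the mean summed level of the members was 5648 for B6J libraries, against 5800 for those of B6J.*Gtpbp1*-/- and 5778 for those of B6J-*Gtpbp2*-/- mice. CACGTG in place of TCACGTGA raised the windows with a match from 5 to 9.

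Replicate numbers did not pair the samples by the rule that every same-numbered pair correlates above 0.1: over 9 pairings of groups, deviations correlated at −0.35 to 0.24, no pairing had all 3 values above 0.1, and 0 to 4 of 6 libraries correlated best with their own number (4 for B6J and 4 for B6J-*Gtpbp2*-/- between RNA and footprints, 3 for footprints of B6J-*Gtpbp2*-/- and B6J mice). The block also ended RNA calls of *Atp6v0a4* (adjusted p = 0.0651), *Atp6v1a* (0.113), *Atp6v1d* (0.0652) and *Atp6v1f* (0.0572) in B6J.*Gtpbp1*-/- and of *Ctsh* (0.0553) and *Ctsz* (0.0565) in B6J-*Gtpbp2*-/- mice, and added footprint calls of *Atp6v0c* (0.0298) and *Ctsh* (0.0342) in B6J-*Gtpbp2*-/- mice. In the companion lists it ended the footprint call of *Laptm5* (0.106) and RNA calls of *Arsa* (0.0979), *Fnip1* (0.0667), *Lamtor5* (0.102), *Manba* (0.0854), *Rragd* (0.134), *Tfeb* (0.0658) and *Vps18* (0.104) in B6J.*Gtpbp1*-/- and of *Lamtor4* (0.0514) and *Manba* (0.0687) in B6J-*Gtpbp2*-/- mice. *Ddx3y* was at other replicate numbers in footprints than in RNA, so TE need not pair animals. With 3 libraries per group and footprint libraries as small as 3630823 counts, a member that was not called is not shown to be equal between genotypes.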
